A study of Mus musculus with 237 samples.

Results

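Epcam, St14, Prss8, Spint1 and Spint2 encode a cell adhesion protein of epithelia, the membrane-anchored proteases matriptase and prostasin, and the Kunitz-type inhibitors HAI-1 and HAI-2 that hold these proteases in check. The 5 genes were taken by symbol, each with 1 Ensembl identifier, out of 55335 genes in the count table, of which 33418 had a count in at least 1 cell. Their levels were read in single skin cells of mouse embryos at E14.5, each sequenced as its own library. Wild-type embryos were C57BL/6N. Trp63 mutant (p63 knockout) embryos were made on the same background by electroporating zygotes with Cas9 and 1 guide RNA, so the alleles can differ between embryos and between cells of an embryo. Both kinds were carried by surrogate ICR mothers. Wild-type epidermis was lifted off the dermis with dispase and then dissociated with trypsin, whereas knockout fetuses went straight into trypsin. In both, cells negative for propidium iodide, CD45, TER119 and CD140a were sorted, and the cDNA was screened by qPCR, keeping wild-type cells with Krt5 or knockout cells with Krt8 and no Pdgfra, so the keratin genes below had already been used to choose cells.

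The labels name 66 wild-type cells of 3 embryos and 171 mutant cells of 7 embryos and 1 cell type for most of them. The count table holds 237 columns, 1 per cell, named by sequencing run. Of these, 16 are paired with a labelled cell, all of wild-type embryo WT01. They are 11 of the basal layer (WT-KCB), 1 of the intermediate layer (WT-KCI) and 4 labelled K17 high (WT-KCP). The study annotates WT-KCP as periderm. The other 221 columns carry no genotype or embryo here, so wild-type and knockout cells were not compared. All 237 columns were instead sorted by their own keratin and collagen levels in CPM (the rounded count of a gene divided by its column's total and scaled to a total of 1000000). A column was called basal with Krt5 and Krt14 at 300 CPM or more and Krt8 under 100 CPM. It was called simple with Krt8 and Krt18 at 100 CPM or more and Krt5 and Krt14 under 100 CPM. It was called mesenchymal with the collagen genes Col1a1 and Col3a1 at 100 CPM or more. This gave 54 basal, 66 simple and 79 mesenchymal columns, with 1 column in both of the last 2 classes, and 39 columns fell in no class. The basal columns include all 11 WT-KCB and all 4 WT-KCP cells, and the WT-KCI cell has no class. Summed, Krt17 was at 2923 CPM in WT-KCP and 96.1 CPM in WT-KCB, and Krt6a at 0.342 and 1.32 CPM. Krt4 had no count in either. Wild-type cells were screened on Krt5 and knockout cells on Krt8, so the classes may follow genotype. Differences between classes cannot be told apart from differences in genotype, embryo, qPCR screen and dissociation. With 1 labelled embryo and 1 unlabelled pool there are no replicates, so no p-value, SD or standard error is given. The 95% Poisson intervals of summed counts and the exact binomial (Clopper-Pearson) intervals of shares cover counting error only, since the reads were amplified and carry no molecular identifiers.

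EpCAM sits on the lateral membrane of simple epithelia and embryonic epidermis, where it binds claudin-7 and holds claudins at the junction. Matriptase and prostasin activate one another at the surface of epithelial cells, and matriptase can cut EpCAM outside the membrane. HAI-1 and HAI-2 are transmembrane inhibitors of both proteases, and the balance between them is needed for the epidermal barrier and for an intact gut lining.

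In the mm10 (GRCm38) annotation, Epcam (ENSMUSG00000045394) lies at chr17:87635979-87651129 on the plus strand, and Spint1 (ENSMUSG00000027315) at chr2:119237362-119249527 on the plus strand. On the minus strand lie St14 (ENSMUSG00000031995) at chr9:31089402-31131853, Prss8 (ENSMUSG00000030800) at chr7:127925716-127930104 and Spint2 (ENSMUSG00000074227) at chr7:29256323-29281912. Reads were counted on exons, whose union measures 2195 bp for Epcam, 7637 bp for St14, 1852 bp for Prss8, 2767 bp for Spint1 and 4556 bp for Spint2. The exons of Prss8 overlap those of Kat8, a histone acetyltransferase gene on the opposite strand, over 122 bp. Because the summed levels of all 5 genes were lower in the mesenchymal class than in the epithelial ones, the promoter windows held for them are shown. RefSeq (GRCm38.p6) windows were matched for Epcam, Spint1 and Spint2, and the 250 bases before each start are printed on the gene's strand, from chr17:87635729-87635978 (plus), chr2:119237110-119237359 (plus) and chr7:29281978-29282227 (minus). For Spint1 and Spint2 the RefSeq start lies upstream of the gene start given above, and distances below are from the RefSeq start. Capitals mark ACCGGT, the core of the site read by Grainyhead-like factors, and CACCTG or its reverse complement CAGGTG, the E-box read by ZEB and SNAI repressors.

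Epcam: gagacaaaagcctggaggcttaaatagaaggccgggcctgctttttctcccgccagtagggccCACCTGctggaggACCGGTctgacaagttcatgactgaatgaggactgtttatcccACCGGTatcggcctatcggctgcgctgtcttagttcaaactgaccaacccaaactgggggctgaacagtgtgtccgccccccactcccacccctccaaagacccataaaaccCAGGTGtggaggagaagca

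Spint1: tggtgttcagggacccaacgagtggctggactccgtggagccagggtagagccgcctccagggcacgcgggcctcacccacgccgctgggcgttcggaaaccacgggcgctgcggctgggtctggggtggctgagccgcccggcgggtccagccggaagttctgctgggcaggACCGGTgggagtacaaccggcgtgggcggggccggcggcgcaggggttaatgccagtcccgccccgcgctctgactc

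Spint2: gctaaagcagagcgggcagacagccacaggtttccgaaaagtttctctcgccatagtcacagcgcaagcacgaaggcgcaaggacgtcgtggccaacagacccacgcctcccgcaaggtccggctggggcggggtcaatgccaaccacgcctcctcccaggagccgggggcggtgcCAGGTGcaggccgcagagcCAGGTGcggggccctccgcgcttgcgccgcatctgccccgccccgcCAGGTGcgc

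The Epcam window holds ACCGGT at 174 and 131 bases before the start and the E-box at 187 and 19 bases before it. The Spint1 window holds ACCGGT once, 77 bases before the start, and no E-box. The Spint2 window holds no ACCGGT and the E-box at 74, 55 and 9 bases before the start. Both strands were searched. Of 32851 windows of this length, 1.86% hold ACCGGT and 17.2% hold CACCTG. The AP-1 letters TGACTCA stand in 4.46% of windows and in none of these 3. A match describes letters in the window and is no evidence of binding.

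Column totals lay between 2701500 and 19197138 counts, with a median of 7821784 in basal, 7277067 in simple and 6093577 in mesenchymal columns. One count was worth 0.0521 to 0.370 CPM. The epithelial markers at 1 CPM or more in the summed columns numbered 9 of 9 in basal and in simple columns and 4 of 9 in mesenchymal columns, and the fibroblast markers numbered 8 of 8 in mesenchymal columns. Krt5, Krt14, Krt8 and Krt18 are among these epithelial markers, and Col1a1 and Col3a1 among the fibroblast markers. The class rule used these genes, so it fixed part of these counts and of the marker sums below. Trp63, the targeted gene, was at 166 to 1288 CPM in basal columns and at 0.251 to 3378 CPM in simple columns, with 55 of 66 simple columns at 1 CPM or more. Reads on an edited gene do not show whether its product works. Of 8 fibroblast markers, 4 reached 1 CPM in the summed basal and 6 in the summed simple columns, and their sum per column ran from 2.95 to 2949 CPM in basal, from 1.76 to 9125 CPM in simple and from 2524 to 131592 CPM in mesenchymal columns. Pdgfra, which encodes the CD140a used to gate cells out, was at 261 CPM in the summed mesenchymal columns and at 1 CPM or more in 73 of 79 of them, against 0.333 CPM in basal and 0.0353 CPM in simple columns. Krt8 was at 2.75 CPM in the summed mesenchymal columns. The mesenchymal columns thus stand apart from the gate and the qPCR screen as described. Among the labels, 70 cells are mutant fibroblasts, all of the same mutant embryo. The paper reports that knockout surface ectoderm was heavily mixed with dermal cells before the qPCR screen. Whether the mesenchymal columns are the labelled fibroblasts was not tested, since these columns carry no genotype or embryo here. The part of other cells' RNA in the levels below was not tested either. Of the simple columns, 3 held 1000 CPM or more of the globin genes Hba-a1 and Hbb-bs, 1 of them at 466974 CPM, although TER119-positive red cells had been gated out. Without these 3 columns the summed levels in simple columns were 1246 CPM for Epcam, 218 CPM for St14, 212 CPM for Prss8, 321 CPM for Spint1 and 978 CPM for Spint2, and all other values below include them unless stated.

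Epcam was present at 1 CPM or more in every one of the 54 basal and 66 simple columns, at about 3 times the level in simple columns. Summed over columns, its level was 390 CPM in basal (95% Poisson interval 388 to 392 CPM) and 1181 CPM in simple columns (1179 to 1184 CPM). In basal columns it ran from 35.04 CPM through a median of 360 CPM to 1291 CPM. In simple columns it ran from 2.52 CPM through a median of 1152 CPM to 3023 CPM. The ranges overlapped, but 61 of 66 simple columns lay above the basal median and 23 lay above the highest basal column. In mesenchymal columns the summed level was 1.93 CPM, the median 0 CPM and the highest value 74.5 CPM, and 8 of 79 columns reached 1 CPM. The 2 simple columns lowest in Epcam, at 2.52 and 3.65 CPM, were the column that is also mesenchymal and the column with the most globin. They also held the epithelial cadherin gene Cdh1 at 1.68 and 3 CPM.

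**Figure D1:**
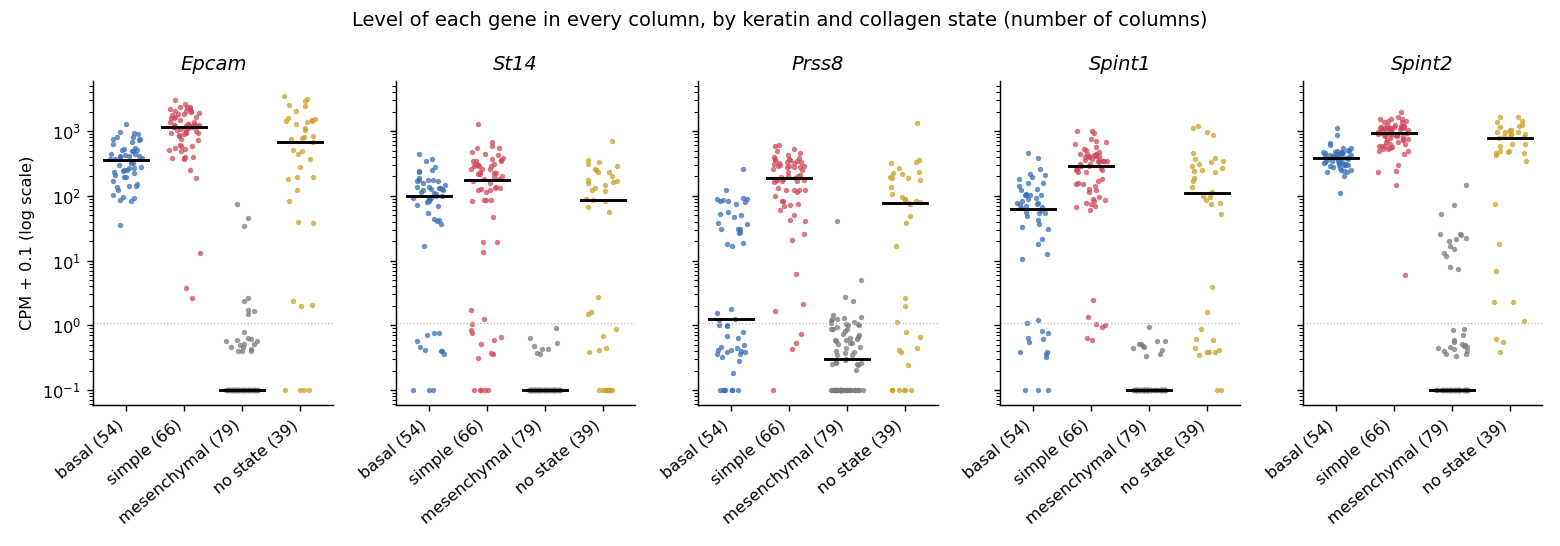
Each point is 1 column of the count table, plotted as CPM + 0.1 on a log axis for each gene and class, with the median as a bar and a dotted line at 1 CPM. Among the basal, simple and mesenchymal classes all 5 genes have their highest median in simple columns, and St14, Prss8 and Spint1 leave a thinly filled gap between about 1 and 10 CPM in basal and simple columns.

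Spint2 (HAI-2) followed Epcam most closely. It was at 1 CPM or more in all 54 basal and all 66 simple columns. Its summed level was 397 CPM in basal columns (395 to 399 CPM) and 939 CPM in simple columns (937 to 942 CPM). The basal columns ran from 110 through 388 to 1112 CPM and the simple columns from 5.90 through 924 to 1981 CPM, and 61 of 66 simple columns exceeded the basal median. The lowest simple column was a globin-rich one, and without the 3 globin-rich columns the lowest value was 145 CPM. In mesenchymal columns its summed level was 6.33 CPM, the highest of the 5 genes there. It was also the highest per kilobase of exon, at 1.39 CPM per kb against 0.881 for Epcam, the next. Of 79 mesenchymal columns, 15 reached 1 CPM and 13 reached 10 CPM, with a highest value of 145 CPM in the column that is also simple. Without that column the summed level was 4.23 CPM and 12 columns reached 10 CPM, with a highest value of 73.2 CPM.

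Spint1 (HAI-1) was less even. Its summed level was 78.3 CPM in basal columns (77.5 to 79.1 CPM) and 304 CPM in simple columns (302 to 305 CPM). In basal columns it ran from 0 CPM through a median of 63.4 CPM to 460 CPM, and 41 of 54 columns, or 75.9% (exact binomial interval 62.4% to 86.5%), reached 1 CPM. In simple columns it ran from 0.483 CPM through 289 CPM to 995 CPM, and 61 of 66 columns, or 92.4% (83.2% to 97.5%), reached 1 CPM. In mesenchymal columns it stayed at or under 0.841 CPM, so 0 of 79 columns reached 1 CPM, which allows a share of up to 4.56%.

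In basal and simple columns St14 (matriptase) mostly read either at 10 CPM or more or under 1 CPM. Whether a column under 1 CPM came from a cell without the RNA, or the RNA was lost before sequencing, was not tested. Of 54 basal columns, 42 (77.8%, exact interval 64.4% to 88.0%) held at least 10 CPM, none lay between 1 and 10 CPM, and 12 lay under 1 CPM. Of 66 simple columns, 50 held at least 10 CPM, 2 lay between 1 and 10 CPM and 14 lay under 1 CPM. The basal columns ran from 0 CPM through a median of 98.8 CPM to 444 CPM. The simple columns ran from 0 CPM through a median of 173 CPM to 1295 CPM. The share of columns at 1 CPM or more was thus close in the 2 classes, at 77.8% and 78.8%, while the median in simple columns was higher. The summed level was 107 CPM in basal (106 to 108 CPM), 206 CPM in simple (205 to 208 CPM) and 0.0376 CPM in mesenchymal columns. In mesenchymal columns 8 of 79 held any count, the highest value was 0.812 CPM and 0 of 79 columns reached 1 CPM, which again allows a share of up to 4.56%. With each column thinned to 2500000 counts, 44 of 54 basal and 54 of 66 simple columns held St14 at 1 CPM or more. Thinning bears on read depth only.

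Prss8 (prostasin) differed most between the epithelial classes. Its summed level was 28.7 CPM in basal columns (28.2 to 29.2 CPM) and 201 CPM in simple columns (200 to 202 CPM). The basal columns ran from 0 CPM through a median of 1.15 CPM to 256 CPM, with 24 of 54 at 10 CPM or more and 26 under 1 CPM. The simple columns ran from 0 CPM through a median of 186 CPM to 618 CPM, with 59 of 66 at 10 CPM or more and 4 under 1 CPM. In mesenchymal columns the summed level was 1.03 CPM, the median 0.199 CPM and the highest value 40.4 CPM, again in the column that is also simple. Without that column the summed level was 0.436 CPM and the highest value 4.88 CPM. Kat8, the gene that shares exon bases with Prss8, was at 34.03 CPM in mesenchymal columns, 43.9 CPM in basal and 65.1 CPM in simple columns. Of the 50 mesenchymal columns with any Prss8 value above 0, 18 (36%) held a fractional value. In simple columns 11 of 65 (16.9%) did, and in basal columns 10 of 48 (20.8%). Of the basal columns at 10 CPM or more, 7 of 24 held a fractional value. So did 3 of 8 WT-KCB and 2 of 4 WT-KCP cells with any Prss8. Whether the strand was used in counting is not stated in the sources used here, so Kat8 reads in the overlap cannot be told apart from Prss8 reads. This makes low Prss8 values uncertain, and higher values carried fractions too.

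Expressed as log2 ratios of summed CPM + 1, 4 of the 5 genes were 2-fold or more higher in simple than in basal columns, and 0 were lower by that much. Over all 16673 genes tested, those at 1 CPM or more in either class, 18.6% were that much higher and 13.2% that much lower. The log2 ratio was 2.77 for Prss8, 1.94 for Spint1, 1.6 for Epcam and 1.24 for Spint2. St14, at 0.94, lay just under the 2-fold line. Without the 3 globin-rich columns St14 was at 1.02 and all 5 genes were past it. The median log2 ratio of the 5 genes was 1.6, and that of all genes tested was 0.05.

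In mesenchymal columns all 5 genes were lower by 2-fold or more against both epithelial classes. Against basal columns, 18.8% of 16850 genes were that much lower and 19.6% that much higher. Against simple columns, 23.7% of 17259 genes were that much lower and 18.8% that much higher. The log2 ratios to basal columns were -7.06 for Epcam, -6.71 for St14, -6.23 for Spint1, -5.76 for Spint2 and -3.87 for Prss8. Those to simple columns were -8.66, -7.64, -8.18, -7.00 and -6.63 in the same order. With a pseudocount of 1 CPM these ratios understate the change of genes near 0. Scaling by the total put the median of all genes tested at -0.21 in both comparisons, and median-of-ratios scaling put it at 0.05 and 0.01. Mesenchymal columns with the highest summed levels of the 5 genes were not all mixed with keratins. The second in that order had 45.9 CPM of Epcam and 73.2 CPM of Spint2 with Krt8, Krt18, Krt5, Krt14 and Cdh1 at 0 CPM. The next had 74.5 CPM of Epcam with Spint2 at 0 CPM and Krt8 at 0.330 CPM.

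Columns near the class limits were counted on both sides of each limit. Within 2-fold above the Krt8 and Krt18 limit there were 2 columns, with Epcam at 2.52 and 1386 CPM, and none within 2-fold below it. At the Krt5 and Krt14 limit there was 1 basal column just above, with Epcam at 735 CPM, and none just below. At the upper limit of Krt5 and Krt14 for the simple class, 5 columns lay within 2-fold inside it, with Epcam at 381 to 2214 CPM, and 9 within 2-fold outside it, with Epcam at 789 to 3171 CPM. At the upper limit of Krt8 for the basal class, 1 column lay inside, a WT-KCP cell with the basal maximum of Epcam at 1291 CPM, and 1 outside, with Epcam at 193 CPM. At the collagen limit, the 4 columns just above held Epcam at 0 to 0.696 CPM, and the 7 just below held it at 0 to 1848 CPM, with a median of 0 CPM. With all limits halved the classes held 53, 61 and 86 columns, and with all limits doubled 54, 72 and 75 columns. With halved limits the mesenchymal class took in columns rich in Epcam, so its summed level was 39.7 CPM for Epcam, 26.8 CPM for Spint2, 8.51 CPM for Prss8, 7.81 CPM for Spint1 and 5.64 CPM for St14. The log2 ratios to basal columns were then -3.22, -3.82, -1.63, -3.17 and -4.05 in this order, still past 2-fold lower.

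Per kilobase of exon, which allows genes to be set side by side, Epcam was the most abundant of the 5 in both epithelial classes. In basal columns the summed levels were 178 CPM per kb for Epcam, 87.2 for Spint2, 28.3 for Spint1, 15.5 for Prss8 and 14.04 for St14. In simple columns they were 538 CPM per kb for Epcam, 206 for Spint2, 110 for Spint1, 108 for Prss8 and 27.02 for St14. In these summed levels Prss8 and St14 stood near each other in basal columns, whereas Prss8 was close to Spint1 in simple columns. The nearness in basal columns depended on the length used and on summing. With the longest transcript as length, St14 was at 30.2 and Prss8 at 15.5 CPM per kb there. By exon union, the median over basal columns was 12.9 CPM per kb for St14 and 0.619 for Prss8.

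Proteases and inhibitors were then read in the same cell. Of 54 basal columns, 48 held St14 or Prss8 at 1 CPM or more, and all 48 also held Spint2, while 39 also held Spint1. Of 66 simple columns, 64 held a protease, all 64 with Spint2 and 59 with Spint1. Since Spint2 was at 1 CPM or more in every basal and simple column, its presence beside a protease, and the absence of columns with a protease and neither inhibitor, were fixed by that and show nothing about the proteases. At a limit of 10 CPM there was 1 such simple column. Spint2 without either protease was seen in 6 basal and 2 simple columns. St14 and Spint1 were both present in 35 basal columns and 50 simple columns. St14 without Spint1 was seen in 7 basal and 2 simple columns, and Spint1 without St14 in 6 basal and 11 simple columns. St14 and Prss8 were both present in 22 of 54 basal columns and in 50 of 66 simple columns. Basal columns had St14 alone in 20 cases and Prss8 alone in 6. Simple columns had St14 alone in 2 cases and Prss8 alone in 12. These counts describe what was read in a column, and loss of RNA before sequencing was not tested.

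All 5 genes were at 1 CPM or more together in 19 of 54 basal columns, 48 of 66 simple columns and 0 of 79 mesenchymal columns. None of the 5 was at 1 CPM in 52 mesenchymal columns, and 1 of the 5 was in a further 21. Counting any read in place of 1 CPM, all 5 were present in 44 basal columns and 60 simple columns, and in 2 mesenchymal columns.

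**Figure D2:**
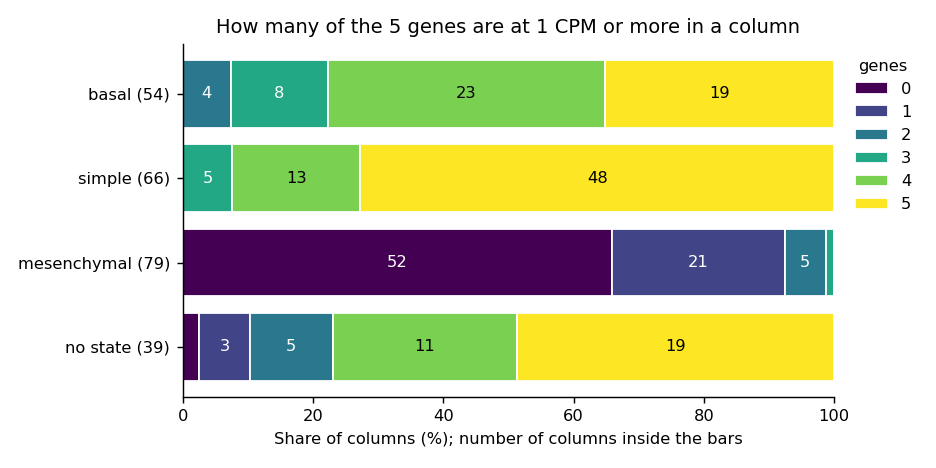
Bars show, for each class, the percentage of columns in which 0 to 5 of the genes were at 1 CPM or more, with the number of columns inside each segment. All 5 genes were present in 48 of 66 simple and 19 of 54 basal columns, and no gene in 52 of 79 mesenchymal columns.

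The summed inhibitors exceeded the summed proteases, per kilobase of exon, in 54 of 54 basal columns and in 59 of 66 simple columns. The log2 ratio of Spint1 plus Spint2 to St14 plus Prss8 (with 0.1 CPM per kb added to each) had a median of 2.43 in basal columns, with quartiles at 1.41 and 3.15. In simple columns the median was 1.26, with quartiles at 0.58 and 1.81. The median of summed proteases was 20.2 CPM per kb in basal and 133 CPM per kb in simple columns. The median of summed inhibitors was 104 and 326 CPM per kb. Both sides were thus higher in simple columns, and the ratio between them lower. In the 7 simple columns with proteases ahead, 6 had Prss8 between 231 and 618 CPM, and the remaining one, with 13.03 CPM of Epcam, was one of the globin-rich columns. With the longest transcript as length in place of the exon union, the medians were 1.84 in basal and 1.37 in simple columns, and the inhibitors were ahead in 52 of 54 and 61 of 66 columns.

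**Figure D3:**
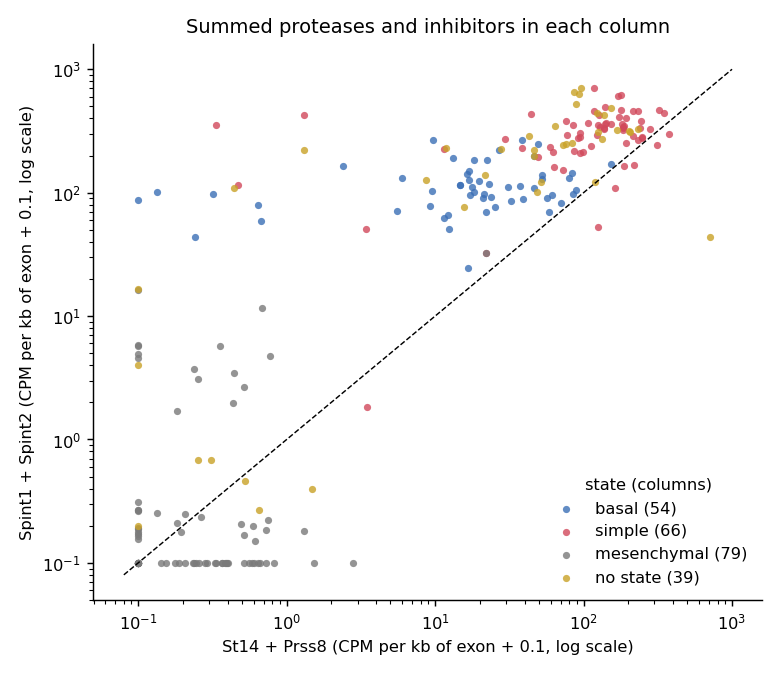
Each point is 1 column, with St14 plus Prss8 on the horizontal and Spint1 plus Spint2 on the vertical axis, both in CPM per kb of exon + 0.1 on log axes, coloured by class, with the line of equality dashed. All 54 basal and 59 of 66 simple columns lie above the line, and most mesenchymal columns lie near the lower left corner.

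In the labelled cells of embryo WT01, Epcam and Spint2 were present in all 16. In the 11 WT-KCB cells Epcam ran from 95.2 CPM through a median of 512 CPM to 915 CPM. The 4 WT-KCP cells held Epcam at 374, 800, 982 and 1291 CPM, and the WT-KCI cell held it at 37.6 CPM. The WT-KCI cell was therefore below all other labelled cells, and 2 of the 4 WT-KCP cells were above every WT-KCB cell. Summed, the level was 476 CPM in WT-KCB (472 to 481 CPM), 847 CPM in WT-KCP (837 to 858 CPM) and 37.6 CPM in WT-KCI (33.5 to 42.03 CPM). For Spint2 the 4 WT-KCP cells, at 110, 427, 457 and 884 CPM, spanned most of the WT-KCB range of 238 to 1112 CPM, and the WT-KCI cell had 590 CPM.

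Spint1 was highest in the WT-KCI cell, at 309 CPM, against 0 to 158 CPM in WT-KCB with a median of 48.2 CPM. The 4 WT-KCP cells held 0.223, 0.285, 70.9 and 102 CPM of Spint1. St14 showed the same split between high and near-absent reads as over basal and simple columns. Of the 11 WT-KCB cells, 7 held between 70.05 and 124 CPM of it and 4 held 0.464 CPM or less. The 4 WT-KCP cells held 0.315, 0.668, 40.2 and 138 CPM, and the WT-KCI cell held 158 CPM, above every other labelled cell. Prss8 ran from 0 CPM through 16.7 CPM to 256 CPM in WT-KCB. It was at 0.285, 1.17, 30.7 and 49.96 CPM in the WT-KCP cells and at 96.7 CPM in the WT-KCI cell.

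Between WT-KCP and WT-KCB, 1 of the 5 genes was 2-fold or more lower and 0 were higher by that much, while of 15387 genes tested 21.9% were that much lower and 17.5% that much higher. The lower gene was Prss8, with a log2 ratio of -1.25. The ratio was 0.83 for Epcam, -0.09 for Spint2, -0.49 for Spint1 and -0.53 for St14. These values turned on single cells. Without the WT-KCB cell at 256 CPM the Prss8 ratio was -0.37 and no gene was past 2-fold lower. It was also short of 2-fold without the WT-KCP cell at 1.17 CPM, at -0.90, and without the one at 0.285 CPM, at -0.87. Leaving out 1 cell at a time, Epcam lay between 0.60 and 1.06, past 2-fold without the WT-KCP cell at 374 CPM. St14 lay between -2.20 and -0.01, past 2-fold lower without the WT-KCP cell at 138 CPM. Spint1 lay between -1.41 and 0.03, past 2-fold lower without the WT-KCP cell at 102 CPM, and Spint2 lay between -0.58 and 0.32, so that the sign of both changed. The ranges of both groups overlapped for each gene.

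**Figure D4:**
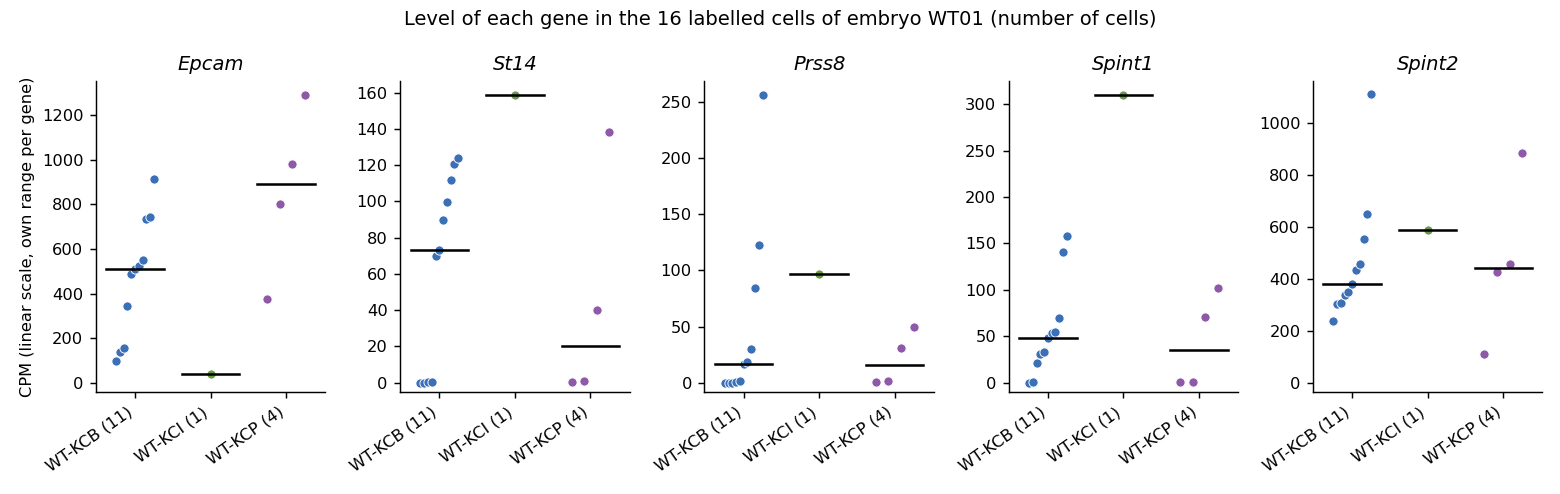
Each point is 1 labelled cell of embryo WT01, in CPM on a linear axis that differs between genes, with the median of a group as a bar (for WT-KCI, the single value). Epcam is lowest in the WT-KCI cell at 37.6 CPM, where St14, at 158 CPM, and Spint1, at 309 CPM, are highest.

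The WT-KCI cell was 1 of 6 columns in no class that held both Krt1 and Krt10, keratins of suprabasal cells, at 1000 CPM or more, a set formed after the values were seen. In these 6 columns Epcam was at 37.6, 39.4, 82.1, 182, 278 and 441 CPM, with a median of 132 CPM. Spint1 ran from 3.78 to 309 CPM and Spint2 from 340 to 802 CPM, and St14 was present in all 6, at 55.8 to 158 CPM. Of the other columns in no class, 22 held Krt8 at 100 CPM or more together with Krt5 or Krt14 at 100 CPM or more. Their summed levels were 1336 CPM for Epcam, 930 CPM for Spint2, 314 CPM for Spint1, 188 CPM for St14 and 117 CPM for Prss8. A further 4 columns held Col3a1 at 100 CPM or more and Krt8 under 100 CPM, and in them Epcam and St14 had no count. One remaining column held the highest Prss8 of the pool, 1313 CPM, with Spint1 at 116 CPM, Spint2 at 6.83 CPM, St14 at 0.788 CPM and Krt8 at 1575 CPM.

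Within the pathway lists, most partners of EpCAM differed in the same direction as Epcam between the epithelial classes. Of the 9 genes of the EpCAM family and its partner claudins, 8 were tested for simple against basal columns, 5 were 2-fold or more higher (18.6% of all genes tested) and 1 was lower (13.2%), with a median log2 ratio of 2.32. Cldn7, the claudin bound by EpCAM, was at 11.1 and 393 CPM, Cldn6 at 24.6 and 640 CPM, Cldn3 at 1.26 and 491 CPM and Cldn4 at 104 and 554 CPM. Cd44, a hyaluronan receptor that can associate with EpCAM, was the lower gene, at 24.1 CPM in basal and 0.0564 CPM in simple columns. Against basal columns, mesenchymal columns had 6 of 8 lower (18.8% of all genes tested) and 1 higher (19.6%), which was Cd44 at 102 CPM. Cldn7 had no count in any of the 16 labelled cells.

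Other membrane-anchored serine proteases were sparse. Of 26 genes found in the table, 5 reached 10 CPM in the summed cells of a class or labelled group. In basal columns 14 of the 26 had no count. Tmprss2 was at 1.64 CPM in basal and 45.1 CPM in simple columns, and Tmprss4 at 0.0389 and 7.41 CPM, and these were the 2 of 7 genes tested that were 2-fold or more higher, with 0 lower. Over all genes tested the shares were 18.6% and 13.2%, so this count lies near the background and is no result about the list. Hpn (hepsin) was at 13.9 and 16.2 CPM, within 2-fold. In the WT-KCI cell Tmprss4 was at 360 CPM and Tmprss13 at 37.6 CPM. Against basal columns, Corin was the 1 gene of 6 tested that was 2-fold or more higher in mesenchymal columns (19.6% of all genes tested), at 17.5 against 0.117 CPM.

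Of the 10 other genes with a Kunitz domain, App and Aplp2 were the most abundant. Aplp2 was at 380 CPM in basal, 1830 CPM in simple and 427 CPM in mesenchymal columns, and App at 337, 813 and 279 CPM. Unlike Spint1 and Spint2, both were therefore within 2-fold between mesenchymal and basal columns. Tfpi, a coagulation inhibitor, was highest in mesenchymal columns at 120 CPM. Of the 4 genes tested for simple against basal columns, 3 were higher (18.6% of all genes tested) and 1 lower (13.2%).

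Of 13 receptors, channels and substrates of these proteases, 9 were tested for simple against basal columns, with 4 higher (18.6% of all genes tested), 1 lower (13.2%) and a median log2 ratio of 0.82. F2rl1, which encodes the protease-activated receptor PAR-2, was at 6.00 CPM in basal, 15.6 CPM in simple and 1.37 CPM in mesenchymal columns. Met, the receptor for hepatocyte growth factor, was at 53.1, 94.5 and 20 CPM, and Pdgfc, a growth factor that matriptase can process, at 131, 85.7 and 11.2 CPM. The sodium channel subunits Scnn1a and Scnn1g, whose channel is opened by prostasin, were at 2.77 and 3.47 CPM in simple columns and at 0.134 and 0 CPM in basal columns. In mesenchymal columns these subunits were at 0.668 and 0 CPM. Scnn1b, another subunit on the list, was instead highest in mesenchymal columns, at 6.35 CPM, against 0.550 CPM in simple and 0 CPM in basal columns.

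For the epidermal serpins the direction was mostly the opposite. All 10 were tested, and 6 were 2-fold or more lower in simple than in basal columns (13.2% of all genes tested) and 1 was higher (18.6%), with a median log2 ratio of -1.70. Serpinb5 (maspin) was at 172 CPM in basal and 10.5 CPM in simple columns. Serpinh1, a collagen chaperone and not a protease inhibitor, was at 162 CPM in basal, 178 CPM in simple and 1308 CPM in mesenchymal columns.

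**Figure D5:**
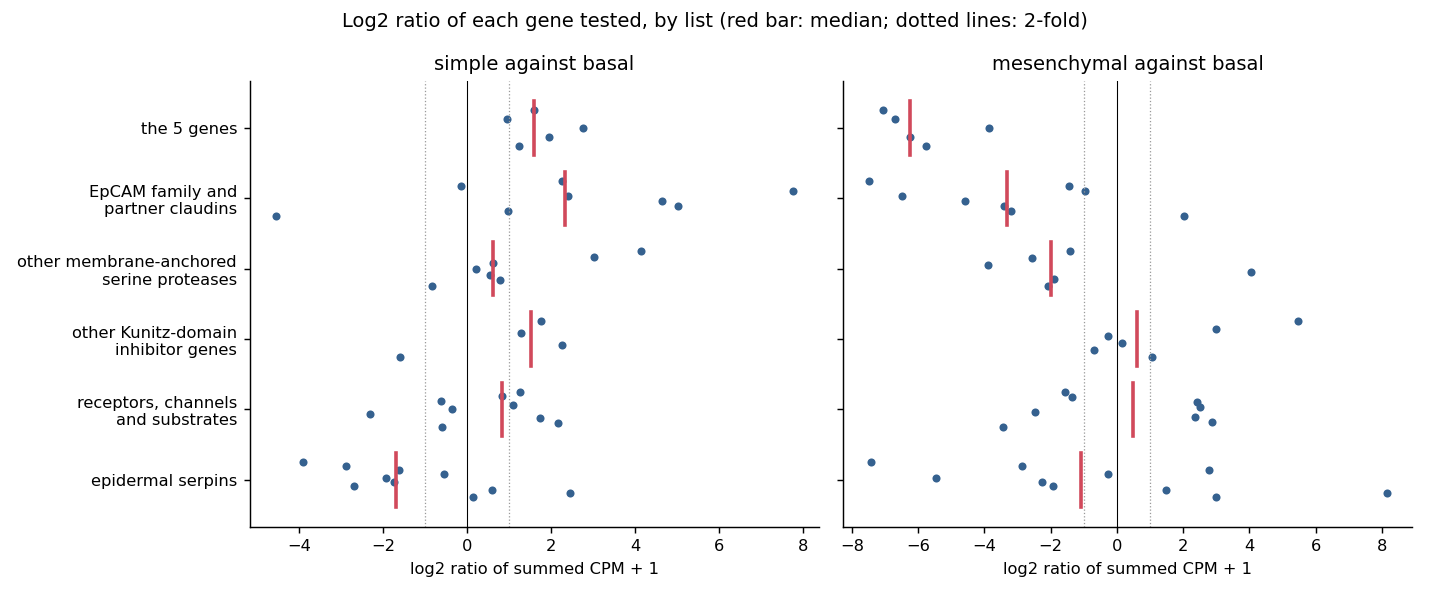
Each point is a gene tested, placed by its log2 ratio of summed CPM + 1 for simple against basal (left) and mesenchymal against basal columns (right), by list, with the list's median in red and 2-fold marked by dotted lines. For simple against basal columns the medians are 1.6 for the 5 genes, 2.32 for the EpCAM family and partner claudins and -1.70 for the epidermal serpins.

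Across all 237 columns, which share unknown embryos and differ in class and depth, Epcam and Spint2 had a Pearson correlation of 0.93 and a Spearman correlation of 0.90 in log2(CPM + 1). Among 11547 genes at 1 CPM or more in at least 25% of the columns, Spint2 had the highest Spearman correlation with Epcam. The next were Cldn4 at 0.84, Cdh1 and Lypd6b at 0.83, Spint1 at 0.83, Krt18 and Igsf9 at 0.82, Grb7 and Krt7 at 0.82 and Cldn6 at 0.82. Within a class the relation was looser, at a Spearman correlation of 0.42 over 54 basal and 0.41 over 66 simple columns. The Pearson correlation was 0.37 in basal and 0.70 in simple columns. The simple columns lowest in Epcam, at 2.52, 3.65 and 13.03 CPM, held 145, 229 and 5.90 CPM of Spint2. The next lowest held Epcam at 186 CPM. The weight of such columns in the Pearson correlation was not tested. St14 had a Spearman correlation of 0.74 with Epcam over all columns, but -0.14 in basal and 0.34 in simple columns. Between St14 and Prss8 it was 0.55 over all columns, 0.06 in basal and 0.12 in simple columns. In basal columns St14 and Spint1 had the largest value among the protease and inhibitor pairs, at 0.39.

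The factors that read the letters marked in the promoter windows were looked up after the values of the 5 genes were seen. Grhl3 was at 92.2 CPM in basal, 304 CPM in simple and 0.0960 CPM in mesenchymal columns, Grhl2 at 86.9, 99.9 and 0.0230 CPM, and Grhl1 at 40.6, 112 and 0.0209 CPM. Zeb2 was at 292 CPM and Zeb1 at 157 CPM in mesenchymal columns, and neither was above 0.05 CPM in the summed basal or simple columns. Snai2 was at 333 CPM in basal, 0.229 CPM in simple and 193 CPM in mesenchymal columns, and Snai1 at 0, 0.585 and 14.3 CPM. Their part in the levels of the 5 genes was not tested.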

How the data were processed

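Single cells of mouse skin at E14.5 were measured by SMART-Seq HT, a plate-based full-length method without molecular identifiers, with Nextera XT libraries and 150 bp paired reads. Per the submitters' processing notes and the study's methods, trimming used Trimmomatic, alignment to mm10 used HISAT2, and reads per gene were summed by featureCounts over the annotation of Ensembl release 97. The strand and multi-mapping options are not given in the sources used here. The table deposited by the authors holds estimated counts, not normalized, for each gene in each cell. Of the nonzero values, 23.2% carry a fraction (Epcam 0%, St14 5.26%, Prss8 22.6%, Spint1 0%, Spint2 1.05%), and values were rounded to whole numbers before use.

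Columns named by run were treated as 1 unlabelled pool, except the 16 that the study's supplementary data pair with a labelled cell. CPM used the column total. Levels are summed CPM with exact 95% Poisson intervals, and log2 ratios used a pseudocount of 1 CPM. Genes were tested where either side reached 1 CPM, and 2-fold counted as past the line. No count model was fitted, since no group had replicates. A count of 0 in a labelled cell allows up to 3 counts, or 0.333 to 0.473 CPM. Exon lengths came from GENCODE M21 (GRCm38), which is not the release the authors counted on, and promoter windows from RefSeq. Of 125 listed genes, 124 were matched by symbol, and 1 that counts in its list is not reported here by name. The ratio script was tested on simulated data. The gene CT010467.1, rich in rRNA reads, took 0.0519% to 31.6% of a column's counts.

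The members, lists and comparisons were chosen with earlier results of these data known. Named genes are the 5 members, the class-defining genes, listed genes that are abundant or past 2-fold, and the 10 genes most correlated with Epcam. The sets among columns in no class, the globin-rich columns, CT010467.1, Kat8, the factors named for the promoter letters and the thinned counts were added after the values were seen. Scripts ran on Python 3.11.15 with scipy 1.17.1, pandas 2.3.3 and numpy 2.4.6, and plots were drawn by matplotlib 3.10.9. Alternatives covered weighting, class limits, rounding, pseudocount, scaling, gene background, detection limit, gene length and each labelled cell left out.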

Additional observations from a re-analysis of the deposited data

How the results depend on the processing

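No paired analysis was possible because the labelled cells come from 1 embryo and the other columns carry no replicate number. The settings tried were equal weight per column, halved and doubled class limits, columns in both classes left out, fractional counts, a pseudocount of 0.1 CPM, median-of-ratios scaling, another gene background and, added later, CT010467.1 or the globin-rich columns left out. Leaving out columns under 1000000 counts or 3000 genes removed 0 columns. Under these, 193 of 195 log2 ratios of the 5 genes stayed on their side of 2-fold and none changed sign while past it. The 2 that moved were St14 for simple against basal columns, at 1.04 with doubled limits and 1.02 without the globin-rich columns. Levels were less steady, and 64 of 165 moved by more than their counting interval under these settings, as did 62 of 75 with 1 labelled cell left out, where 6 of 75 ratios crossed 2-fold. All 78 counts of genes of the 5 past 2-fold stayed within 1.5 times, but a rise from 4 to 5 genes cannot pass that limit. Such a rise occurred for simple against basal columns without the globin-rich columns, so the limit shows little about stability. Leaving out each labelled cell in turn, the number of the 5 genes past 2-fold for WT-KCP against WT-KCB ranged from 0 to 1 higher and from 0 to 1 lower. With any count in place of 1 CPM, basal columns with all 5 genes numbered 44 instead of 19. With 10 CPM, simple columns with a protease and neither inhibitor numbered 1 instead of 0. The mesenchymal ratios moved most. Against basal columns, Epcam lay between -7.58 (pseudocount of 0.1 CPM) and -3.22 (halved limits) and St14 between -9.61 and -4.05 under the same settings. Depth limits values under 1.11 CPM, the worth of 3 counts in the shallowest column.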
